A study of Bos taurus with 16 samples.

Results

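Annexins are calcium-dependent, phospholipid-binding proteins, and 8 of their genes, ANXA1, ANXA2, ANXA3, ANXA4, ANXA5, ANXA6, ANXA7 and ANXA11, were followed probe by probe in bovine whole blood. The genes were chosen by their measured signal: 1 probe each of ANXA11 and ANXA6 was lower in the blood of cows given a probiotic, while the mean of the gene's probes was not in the processing that chose them. With the net signal scaled here the latter does not hold, as the mean of the kept probes was below 0 for both genes. The contrasts of probiotic with untreated cows and with day 0 therefore chose them and are described without a test. All 25 probes carrying these symbols were used, of 43653 on the array, and 13 of the 25 (from 6 of the 8 genes) were kept for comparison, against 12233 kept of all probes. A kept probe was marked by the scanner software as well above background on every array of 1 group or more. The samples were 16 single-colour Agilent bovine arrays in 4 groups of 4, from lactating female Holstein Friesian cows of unstated age. The day 0 group was blood drawn before supplementation. The untreated group was blood drawn on day 60 from 5 control animals that received water. The probiotic group was day 60 blood from 5 animals given the Fastrack Microbial pack by mouth, a commercial mix of yeast culture (Saccharomyces cerevisiae), Enterococcus faecium, Lactobacillus acidophilus, Aspergillus oryzae and Bacillus subtilis fermentation products with rice hulls, calcium carbonate and chicory root. The LPS group was day 60 blood of probiotic-fed animals exposed outside the body to lipopolysaccharide, a bacterial endotoxin, at 100 ng/ml. All blood stood for 30 min at 37 °C in 5% CO2, and its RNA was pooled in equal amounts over the animals of a group. The day 0 samples carry the code of the probiotic arm in 1 label, while the series' text speaks of 10 enrolled animals, so whether that pool held 5 or 10 animals is not settled. Each group was thus 1 pool on 4 arrays. The p-values measure only the spread between arrays of a pool, and differences between cows are not measured.

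Annexins share a core of repeated domains that binds calcium and, through it, negatively charged membrane lipids, and they differ mainly in the amino-terminal stretch ahead of that core. They take part in membrane repair, vesicle traffic and the control of inflammation. ANXA1 is known in neutrophils and monocytes as a glucocorticoid-regulated protein that acts on formyl peptide receptors, ANXA3 is abundant in neutrophil granules, and ANXA5 binds the phosphatidylserine that dying cells and activated platelets expose. In whole blood a lower level can mean fewer cells of a type or less RNA in each cell, and pooled arrays cannot tell these apart.

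The ANXA11 and ANXA6 probe sequences are shown because the probes of each of these genes gave different results. Probes are numbered within a gene by their row on the array, and each is 60 bases long, written 5′ to 3′ as deposited. Capitals mark cytosine, of which ANXA11 probe 4 and ANXA6 probe 1 hold the most. ANXA11 probe 1, lower in the probiotic pool only after scaling, held 25%, as did ANXA11 probe 2, which was higher. The ANXA11 probe that was lower than in the untreated pool by net signal too, and another ANXA11 probe that was not kept, were:
ANXA11 probe 4: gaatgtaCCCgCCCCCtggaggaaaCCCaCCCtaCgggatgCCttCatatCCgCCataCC
ANXA11 probe 3: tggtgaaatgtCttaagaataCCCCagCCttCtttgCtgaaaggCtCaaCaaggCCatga
For ANXA6 the first 30 bases of the lower probe, and the whole of the other probes, were:
ANXA6 probe 1: ttCCCagCttCCatCtCttgtCaCagCCCC
ANXA6 probe 2: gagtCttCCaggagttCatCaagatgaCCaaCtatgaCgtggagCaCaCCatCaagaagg
ANXA6 probe 3: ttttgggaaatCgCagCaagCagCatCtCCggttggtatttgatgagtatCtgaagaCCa
Cytosine made up 40% of ANXA11 probe 4 and 35% of ANXA6 probe 1 over their full length, the highest shares among the 25 annexin probes, whose median was 18.3%. Over all 43653 probes the median was 21.7%, 0.6002% had as much cytosine as ANXA11 probe 4 or more, and 3.53% as much as ANXA6 probe 1 or more. The positions of the probes in exons and untranslated regions were not analysed here.

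The arrays differed in how much they detected. Probes well above background made up 8.25 to 23.0% of all probes on the day 0 arrays, 26.4 to 37.0% on the probiotic, 11.99 to 17.9% on the untreated and 22.5 to 42.0% on the LPS arrays, with replicate 4 lowest in the day 0, probiotic and LPS groups. The slide differed for every group, which means that slide and treatment cannot be told apart, and only the probiotic and LPS arrays shared a scan day. Unscaled marker signal of blood cells also differed between groups. The summed net signal of 8 neutrophil markers ran from 64826 to 94650 on probiotic, 2521 to 22053 on day 0, 1722 to 6014 on untreated and 3421 to 85035 on LPS arrays. On every array of the group, 4 of the 8 were well above background for probiotic, 5 for day 0, 2 for untreated and 5 for LPS, and S100A8 and ITGAM in no group. Of 6 T cell markers it was 6, 2, 1 and 4 in the same order, and of 6 monocyte markers 5, 4, 2 and 5. It was 3, 4, 2 and 3 of 5 B cell, 3, 2, 2 and 3 of 5 natural killer, 3, 2, 3 and 3 of 6 erythroid and 2, 0, 0 and 0 of 4 platelet markers on the array. Untreated and day 0 sums overlapped for all listed cell types but monocytes (733 to 1243 and 1792 to 9794). For B cell markers the sums were 2439 to 8810 and 3090 to 6069, and for natural killer markers 866 to 2124 and 835 to 2464. The part of detection, slide and cell make-up in the annexin differences was not tested.

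ANXA11 partners with calcium-binding proteins in vesicle traffic and has a long amino-terminal domain. The net signal (spot minus background, in scanner units) of probe 4 was 1161, 989, 760 and 349 on the day 0 arrays, replicates 1 to 4, and 2048, 1845, 1849 and 1533 on the untreated arrays. On the probiotic arrays it was 666, 102, 117 and 81.7, and on the LPS arrays 18.0, 782, 1363 and 2713, with LPS replicate 1 not well above background. The untreated arrays lay above every probiotic array without overlap, the day 0 arrays overlapped the probiotic ones through probiotic replicate 1, and the LPS arrays spread over the whole range. Probe 2 of the same gene behaved otherwise, at 5973, 5649, 5732 and 4870 on the probiotic arrays and 1174, 1125, 1065 and 48.1 on the day 0 arrays. On the untreated arrays probe 2 read 15.8, 12.6, 25 and 36.1, never well above background, and on the LPS arrays 6116, 6410, 5906 and 71.3. The gene was therefore brightest in the untreated pool by probe 4 and undetected there by probe 2.

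ANXA11 probe 1 was at 581, 529, 524 and 363 on the probiotic arrays and at 137, 115, 158 and 168 on the untreated arrays. Its day 0 values were 118, 89.1, 84.7 and -2.3, and its LPS values 484, 395, 461 and 20.1, with replicate 4 of both groups not well above background. Probe 3 was faint, at most 192 on any array, and was not kept because no group had it above background on all 4 arrays.

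To compare arrays, each was divided by the 75th percentile of its net signal over the 712 probes well above background on all 16 arrays. Values below an array's floor, the faintest signal among all probes well above background on that array, were raised to it. That divisor was 1083 to 1381 on the untreated, 777 to 2988 on the day 0 and 7183 to 12470 on the probiotic arrays. On this log2 scale ANXA11 probe 4 was lower in the probiotic than in the untreated pool by a difference of -6.57 ± 1.16 (SE of the fit, 4 arrays a group, as for all values below), or 94.96-fold, and the net signal ratio was 0.133. Probe 1 differed by -1.29 ± 0.317, although its net signal was 3.45 times as high in the probiotic pool, so its direction rests on the scaling and turned under 3 of the scalings tried. Probe 2 was at least 6.62-fold higher in the probiotic pool (difference 2.73 ± 0.770), a lower bound because the untreated arrays were at the floor. The mean of the 3 kept probes was -1.71, with single probes from -6.57 to 2.73, and is itself only a lower bound because that of probe 2 is.

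Against day 0 probe 4 was again lower, and probe 2 was higher by a margin that rested on 1 array. ANXA11 probe 4 differed by -4.55 ± 1.16, or 23.4-fold lower in the probiotic pool (net signal ratio 0.297), and probe 2 by 1.11 ± 0.770, or 2.16-fold higher. Without day 0 replicate 4 probe 2 differed by 0.44 and was no longer past 2-fold, nor was it with scaling to the 75th percentile of all probes (0.92) or with cyclic loess (0.52). Probe 1 differed by 0.36 ± 0.317, within the spread of the arrays. The mean of the kept ANXA11 probes was -1.03. Of 2145 genes with several kept probes, 118 (5.50%) had probes past 2-fold in both directions between probiotic and untreated, 32 (1.49%) between probiotic and day 0 and 84 (3.92%) between untreated and day 0, and ANXA11 was among them in all 3 comparisons, but not in that of probiotic and day 0 without day 0 replicate 4. The other 4 annexin genes with several kept probes were not.

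ANXA6, which carries a doubled annexin core and acts at endosomes and in membrane repair, was lower in the probiotic pool by its probe 1. Net signal of that probe was 660, 343, 240 and 94.9 on the probiotic arrays and 800, 1658, 835 and 1397 on the untreated arrays. On day 0 it was 156, 137, 235 and 173, and with LPS 562, 328, 168 and 453, so it was well above background on all 16 arrays. The untreated values lay above all others, and the probiotic, day 0 and LPS values overlapped. Scaled, the probe differed by -5.13 ± 0.714 between probiotic and untreated (34.9-fold lower, net signal ratio 0.285) and by -1.69 ± 0.714 between probiotic and day 0, where the arrays overlapped and the net signal ratio was 1.91 the other way.

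ANXA6 probe 3 was at 235, 218, 228 and 200 on the probiotic arrays and at 207, 211, 229 and 12 on the LPS arrays, with only LPS replicate 4 not well above background. None of the 8 day 0 and untreated arrays had it well above background (at most 22.2). Its scaled difference between probiotic and untreated, -1.93 ± 0.426, is set by the higher floor of the untreated arrays and gives no fold. Probe 2 was not well above background on any of the 16 arrays (-4.6 to 18.5). The mean of the 2 kept ANXA6 probes (-3.53 against untreated, -0.67 against day 0) includes this floor value and measures no level. Among the 13 kept annexin probes with a positive mean on both sides, ANXA11 probe 4 and ANXA6 probe 1 were the only ones whose unscaled net signal was lower in the probiotic than in the untreated pool, and against day 0 only ANXA11 probe 4 was.

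**Figure D1:**
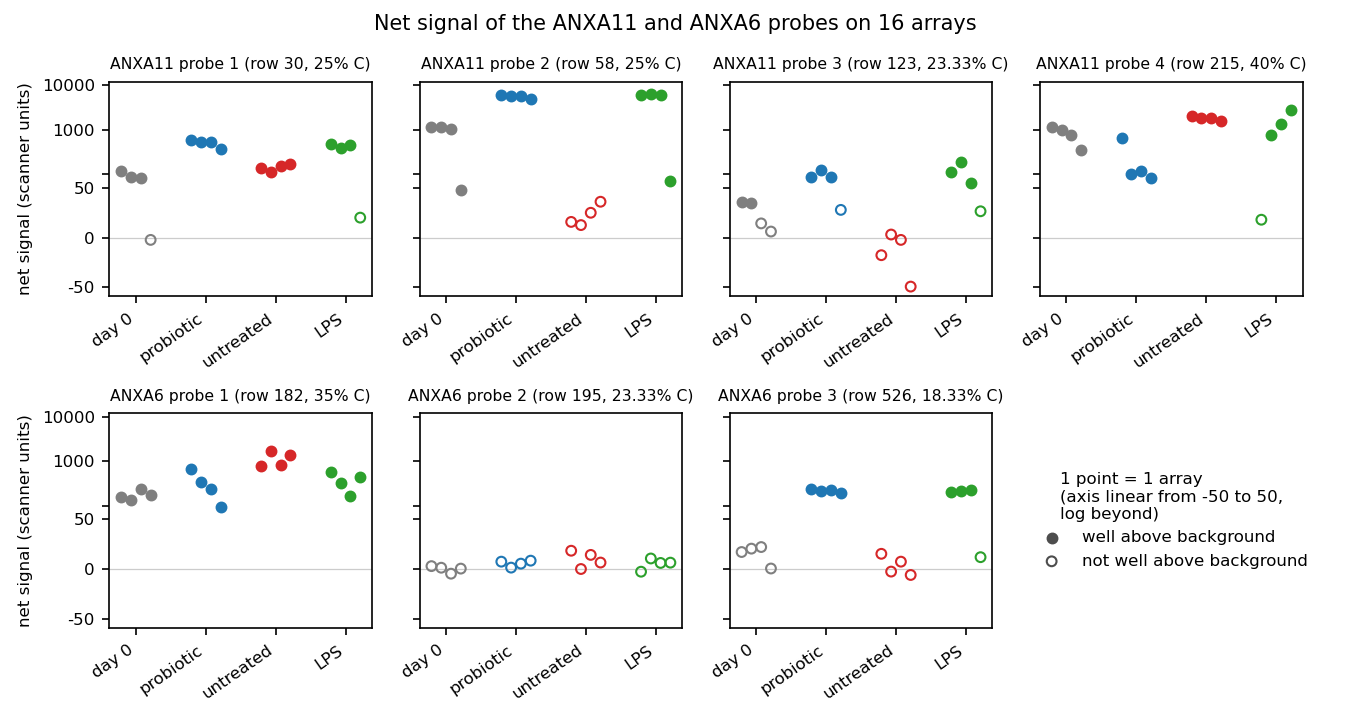
Net signal in scanner units (axis linear near 0, log beyond) of the 4 ANXA11 and 3 ANXA6 probes, 1 point an array, by group; open points were not well above background, and titles give array row and cytosine share. ANXA11 probe 4 and ANXA6 probe 1 are high on the untreated arrays (1533 to 2048 and 800 to 1658), where ANXA11 probe 2 and ANXA6 probe 3 were not detected.

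ANXA11 probe 4 and ANXA6 probe 1 also lay close together on the array, in rows 215 and 182 of 532, while ANXA11 probes 1 and 2 lay in rows 30 and 58 and ANXA6 probe 3 in row 526. Of other kept annexin probes near these rows, ANXA3 probe 2 in row 200 differed by -0.55 and ANXA5 probe 1 in row 168 by 0.04. ANXA2 probe 2 in row 232 differed by -1.65 with overlapping arrays. These probes were well above background on 1, 1 and 3 untreated arrays, so the 2-fold rule could not mark them as lower at any difference. They held 21.7, 20 and 15% cytosine. The share of all kept probes at least 2-fold lower in the probiotic than in the untreated pool depended on the row. In 10 equal bands of rows it was 5.80, 4.40, 7.86 and 9.55% in bands 1, 2, 9 and 10, and 34.95, 38.7, 36.0 and 49.95% in bands 4 to 7. ANXA6 probe 1 lay in band 4 and ANXA11 probe 4 in band 5. The opposite share, at least 2-fold higher in the probiotic pool, was 21.2 and 16.8% in bands 1 and 2, which hold ANXA11 probes 1 and 2, against 5.43 and 6.44% in bands 4 and 5. ANXA11 probe 1 went the other way by its scaled signal. It was at least 2-fold lower (-1.29) in band 1, where 5.80% of kept probes were.

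Agreement between groups moved with the row as well. Within 7 rows of ANXA6 probe 1 and ANXA11 probe 4, the signal ranks of untreated arrays correlated with those of probiotic replicates 1 to 3 at Spearman's rho of 0.66 and 0.70 (over 1240 and 1249 probes, a description across probes of the same arrays). Around ANXA11 probes 1 and 2 it was 0.30 at both, and around ANXA6 probe 3 0.37. Day 0 arrays ran the other way, with 0.52 and 0.48 around ANXA6 probe 1 and ANXA11 probe 4. Against this stood 0.95 and 0.91 around ANXA11 probes 1 and 2 and 0.97 around ANXA6 probe 3. LPS arrays stayed between 0.80 and 0.96 around these 5 probes.

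**Figure D2:**
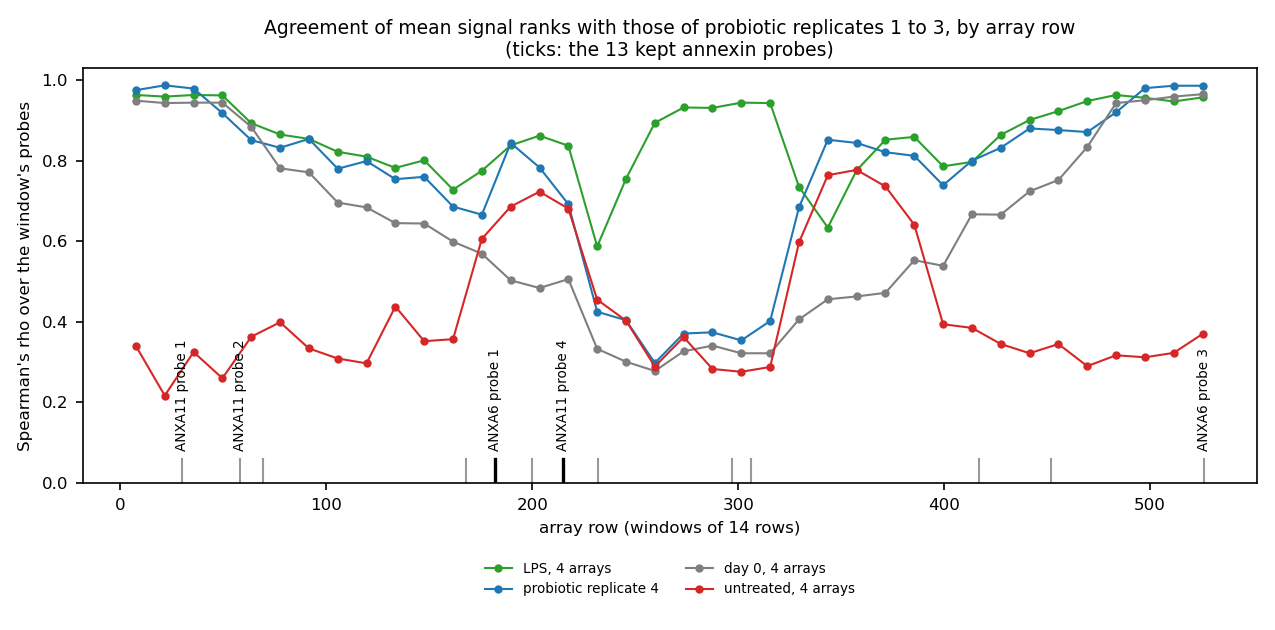
Spearman's rho over the probes in windows of 14 array rows between the signal ranks of each set of arrays and those of probiotic replicates 1 to 3, against array row; ticks mark the 13 kept annexin probes. Untreated arrays peaked at 0.723 in rows 197 to 210, between ANXA6 probe 1 and ANXA11 probe 4, and at 0.777 in rows 351 to 364, and lay at 0.217 to 0.438 in rows 1 to 168.

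Cytosine content went with the direction in the same comparison. Of all kept probes with under 15% cytosine, 3.34% were at least 2-fold lower in the probiotic than in the untreated pool, and the share was 3.98, 9.20, 22.6, 36.7 and 47.2% in the following classes up to 35% or more. In band 4 the class of 35% or more, to which ANXA6 probe 1 belongs, had 69.1% of 84 probes lower, and in band 5 the class of ANXA11 probe 4 had 79.5% of 83 lower. In bands 1, 2, 9 and 10 the same class had 31.0% of 406 lower. Between untreated and day 0, 80.7% of the band 5 class and 66.7% of the band 4 class were at least 2-fold higher in untreated blood. Across the 43653 probes, cytosine share and net signal correlated at Spearman's rho of 0.309, 0.352, 0.334 and 0.169 on the untreated arrays, 0.119 to 0.183 on the probiotic, 0.099 to 0.173 on the LPS and -0.015 to 0.053 on the day 0 arrays. The part of row and base composition in the ANXA11 and ANXA6 differences was not tested beyond these values.

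**Figure D3:**
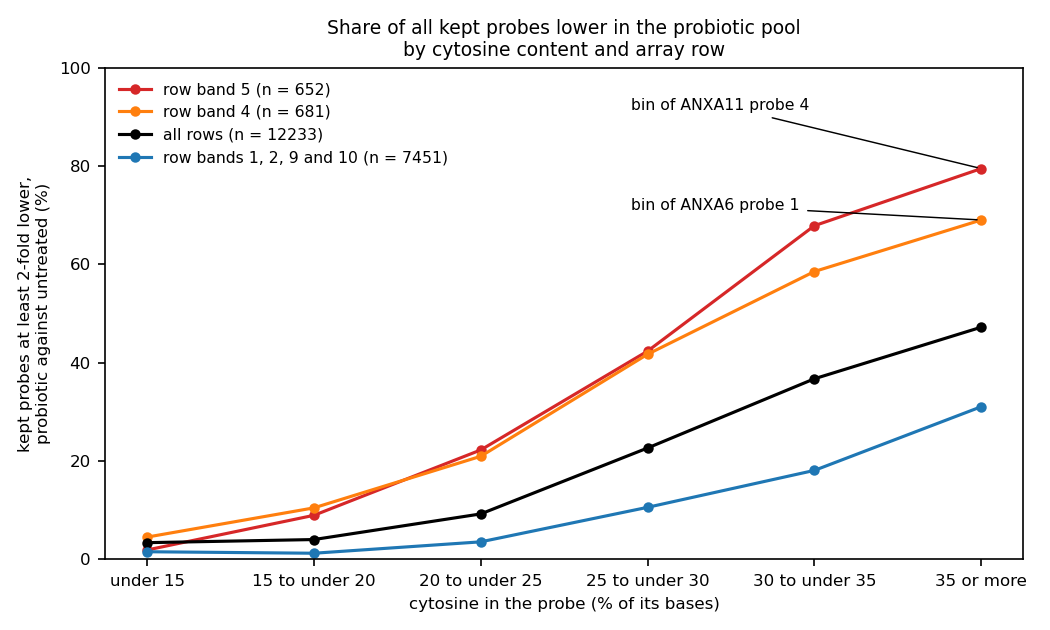
Percent of kept probes at least 2-fold lower in the probiotic than in the untreated pool (y axis) by the cytosine share of the probe (x axis), for all rows and 3 sets of array rows. The share rises from 3.34 to 47.2% over all rows and reaches 69.1 and 79.5% in the classes that hold ANXA6 probe 1 and ANXA11 probe 4.

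ANXA1 had 3 probes with unlike signals. Probe 3 was the brightest annexin probe, at 13324, 13585, 12588 and 11806 on the probiotic and 12962, 12659, 12498 and 1192 on the LPS arrays. On day 0 it read 2279, 2260, 2242 and 668, and on the untreated arrays -24.6, 13, -7.2 and 2736. Only untreated replicate 4 detected it, and that value exceeded all day 0 values. Scaled, it differed by 2.83 ± 0.794 between probiotic and untreated, with overlapping arrays, and by 0.61 ± 0.794 between probiotic and day 0.

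ANXA1 probe 2 was at 621, 597, 704 and 9.4 on the probiotic and 202, 568, 1495 and 148 on the LPS arrays, and was not well above background on any day 0 or untreated array. Probiotic replicate 4 did not detect it. No array had probe 1 well above background (-8.9 to 114.0). The probes lie in rows 174 and 297. Around row 297 day 0, untreated and probiotic replicate 4 arrays all agreed poorly with probiotic replicates 1 to 3 (rho 0.35, 0.31 and 0.40), while LPS arrays agreed at 0.94.

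ANXA2, which pairs with S100A10 at the cell surface and in plasminogen activation, was detected weakly and unevenly. Probe 2 read 5365, 311, 437 and 26.6 on the probiotic arrays and 247, 223, 91.4 and 116 on the untreated arrays, and 56.9, 67.7, 98.9 and 322 with LPS. It was not well above background on day 0 (-2.3 to 21.0). Probiotic replicate 1 lay far above the other 3, and the scaled difference from untreated was -1.65 ± 1.15 with overlapping arrays. Probe 3 was not kept, and read 319, 228, 292 and 3.3 on the probiotic arrays and 352 on untreated replicate 4, the highest of the 16, while probe 1 was detected by no array.

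ANXA3 had all 3 probes well above background on every probiotic array. Probe 1 read 834, 847, 795 and 789 there and 860, 845, 854 and 207 with LPS, against 120, 121, 113 and 23.1 on day 0 and no signal above 0 on the untreated arrays. Probe 3 read 782, 827, 815 and 734 in the probiotic pool and 146, 134, 131 and 3.2 on day 0, and probe 2 2309, 1663, 1544 and 234 and 623, 563, 280 and 14.9. On the untreated arrays only probe 2 was detected, on replicate 4 at 1665. Scaled, the 3 probes differed between probiotic and untreated by -0.04 ± 0.302, -0.55 ± 0.878 and -0.09 ± 0.398 in probe order, all with overlapping arrays against the untreated floor, and by 0.87, -0.20 and 0.66 against day 0.

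By unscaled net signal, ANXA5 probes 1 and 2 were both high in the probiotic and LPS pools, lower on day 0 and mostly undetected in untreated blood. Probe 2 read 3137, 2875, 2739 and 1868 on the probiotic, 2506, 3268, 3247 and 112 on the LPS and 620, 615, 594 and 27.3 on the day 0 arrays, and was never well above background on the untreated arrays. It was at least 3.12-fold higher in the probiotic than in the untreated pool (difference 1.64 ± 0.538). Probe 1 read 1174, 1168, 1234 and 971 with probiotic, 1293, 1381, 1343 and 58.8 with LPS and 235, 229, 213 and 10.7 on day 0, and only untreated replicate 2, at 235, detected it among the untreated arrays. Its scaled difference from untreated was 0.04 ± 0.428. Between probiotic and day 0 the scaled differences were 0.64 ± 0.428 for probe 1 and 0.77 ± 0.538 for probe 2, neither past 2-fold. Probe 3 was not kept (at most 148).

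ANXA4 and ANXA7, a further pair of widely expressed annexins, had no kept probe. Of the 4 ANXA4 probes, probe 2 was the brightest, at 137, 108, 161 and -14.7 on the probiotic arrays and 9.0, 71.9, 295 and -10.8 with LPS. ANXA7 probe 1 was well above background only on LPS replicates 1, 2 and 3 (72.4, 109 and 32.5), and probe 2 on no array. In all, 5 of the 25 annexin probes were not well above background on any array. On all 4 arrays of a group, 11 probes were in the probiotic, 9 in the LPS, 4 in the day 0 and 3 in the untreated pool.

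**Figure D4:**
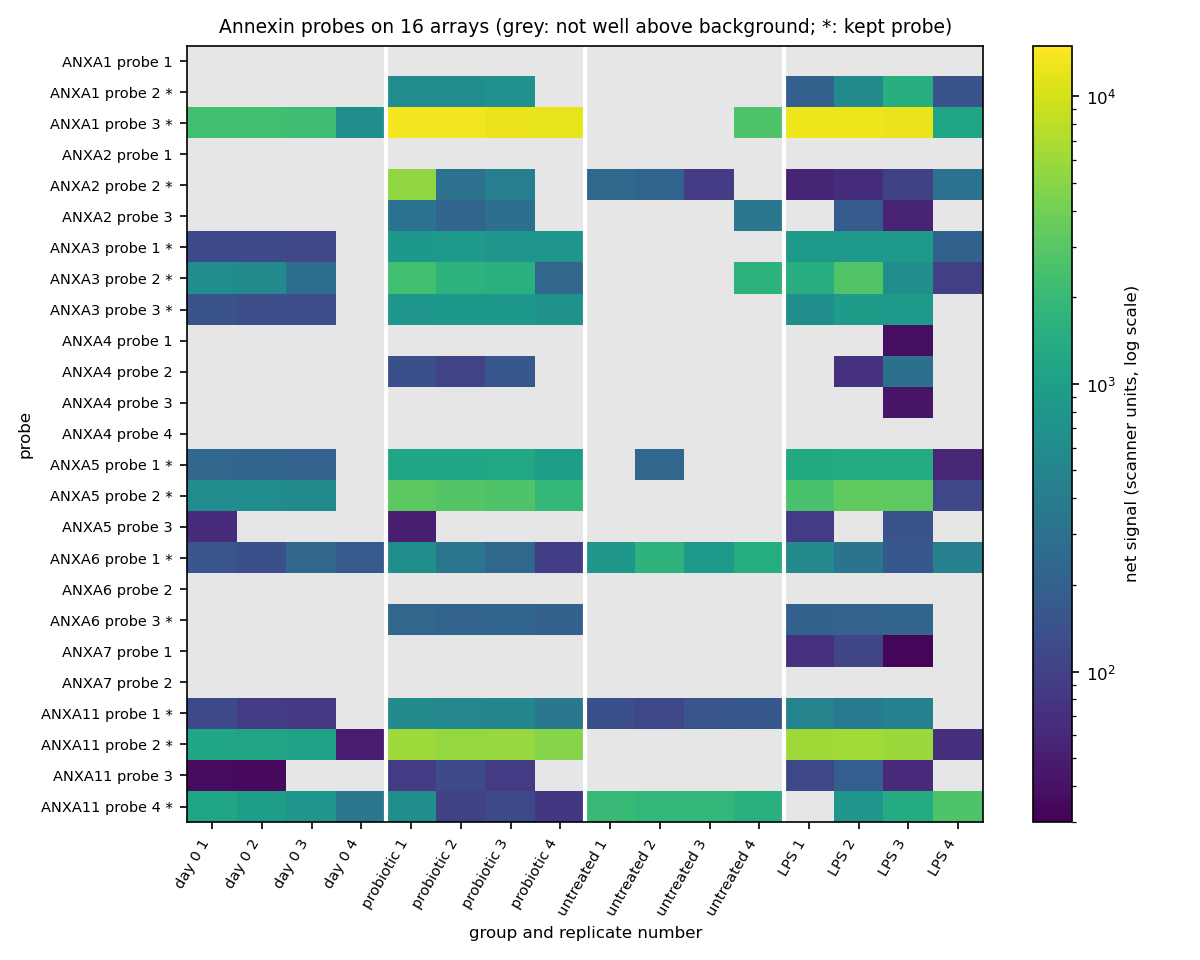
Net signal in scanner units (log colour scale) of the 25 annexin probes (rows) on the 16 arrays (columns); grey cells were not well above background and * marks kept probes. On the untreated arrays only ANXA6 probe 1 and ANXA11 probes 1 and 4 are coloured on all 4 arrays, and replicate 4 of the day 0 and LPS groups is dimmer than its neighbours for most probes.

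Counted over the 13 kept annexin probes, 3 were at least 2-fold higher (ANXA1 probe 3, ANXA5 probe 2 and ANXA11 probe 2) and 3 at least 2-fold lower (ANXA6 probe 1 and ANXA11 probes 1 and 4) in the probiotic than in the untreated pool, and 7 were neither. Only the 3 marked lower could be, as no other kept annexin probe was well above background on all 4 untreated arrays. Over all kept probes 13.7% were higher and 16.6% lower by the same rule. The median difference was -0.55 for the annexin probes and -1.80 for all kept probes. Relative to the latter median ANXA11 probe 4 stood at -4.76 and ANXA6 probe 1 at -3.32, while ANXA11 probe 1 stood at 0.52. That median depended on scaling and floor. It was 0.07 with scaling to the 75th percentile of all probes and 0.0 with 1 common floor. Against day 0, 1 annexin probe was higher (ANXA11 probe 2) and 2 lower (ANXA11 probe 4 and ANXA6 probe 1), against 9.49% and 4.60% of all kept probes, with medians of 0.64 and -0.02. Since these contrasts chose the genes, nothing is read from the counts.

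Exposure of probiotic blood to LPS was a comparison that did not choose the genes, though it shares the probiotic arrays with those that did. None of the 13 annexin probes was called up or down by limma (adjusted p under 0.05 over all 12233 kept probes and at least 2-fold), and 1 of 13 had an unadjusted p under 0.05, against 783 of all 12233. Over all kept probes 1.55% were called up and 0.106% down. The median difference was -0.28 for annexin probes and 0.07 for all. ANXA11 probe 4 had the largest difference, 2.45 ± 1.16 (95% interval 0.19 to 4.72, limma adjusted p = 0.779), with LPS replicate 1 not detected. Without that array the difference was 3.91 and was called (limma adjusted p = 0.0182; range over 28 alternatives 0.0182 to 1). Without LPS replicate 4 the difference was 1.07 and was not called. That array read highest of the LPS arrays for this probe (2713), yet had the fewest probes well above background in its group (22.5% of all). ANXA1 probe 2 differed by 0.85 (95% interval -0.57 to 2.28) and ANXA5 probe 2 by -0.41 (-1.46 to 0.65). ANXA3 probe 1 had the narrowest interval, 0.13 (-0.46 to 0.73). The 95% intervals, here and for untreated against day 0, use a normal approximation and are narrower than those of limma's moderated t.

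Untreated blood on day 60 was also compared with blood on day 0. This difference is what remains between the contrasts that chose the genes, so for ANXA11 and ANXA6 it is no independent support. Of the 13 annexin probes limma called 2 up (ANXA6 probe 1, 3.44 ± 0.714, and ANXA11 probe 1, 1.64 ± 0.317) and 1 down, against 16.5% up and 6.70% down of all kept probes. Only 3 of the 13 could be called up, as the rest were not well above background on all 4 untreated arrays. The median was 0.90 for annexin probes and 1.91 for all. The latter was -0.16 with scaling to the 75th percentile of all probes and 0.0 with 1 common floor. Relative to 1.91 the 2 probes called up stood at 1.53 and -0.26. Neither call held under every setting. ANXA6 probe 1 lost its call when scaled to the 75th percentile of all probes (1.37) and with the processed signal (0.14 scaled to all probes, -1.08 to detected ones). ANXA11 probe 1 lost its call when scaled to the 75th percentile (-0.43) or the median (0.86) of all probes, with cyclic loess (0.51), with normexp (0.77) and with a common floor (0.23). The probe called down was ANXA1 probe 3 (-2.22 ± 0.794, 95% interval -3.78 to -0.67, limma adjusted p = 0.0193), which 3 of 4 untreated arrays did not detect. Its call was lost without untreated replicate 1, 2 or 3, at differences of -1.98, -1.68 and -1.80 (limma adjusted p = 0.0567, 0.0756 and 0.0677; range over 28 alternatives 4.64e-06 to 0.934). The difference shrank to -0.82 with cyclic loess, to -0.25 with the processed signal scaled to all probes and to -0.27 in the authors' deposited table. ANXA11 probe 4 differed by 2.02 ± 1.16 and probe 2 by at least 3.06-fold the other way (-1.61 ± 0.770), and neither was called. Other settings called them. Probe 4 was called up without LPS replicate 1 or LPS replicate 4, which enter through the common spread, and also when only the 2 groups compared were fitted or a common floor was set. Probe 2 was called down without day 0 replicate 4 (-2.29) or LPS replicate 4, with only the 2 groups, with no filter on dim probes and under 3 other scalings, and stood at -1.18 with cyclic loess. Without day 0 replicate 4, ANXA5 probe 2 was called down as well (-1.41, limma adjusted p = 0.0120, range over 28 alternatives 2.28e-06 to 0.439). ANXA2 probe 2 was called up without untreated replicate 4 (3.08, limma adjusted p = 0.0424), the array that did not detect it, and stood at 2.96 ± 1.15 with it (range of adjusted p over 28 alternatives 0.00111 to 0.638).

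**Figure D5:**
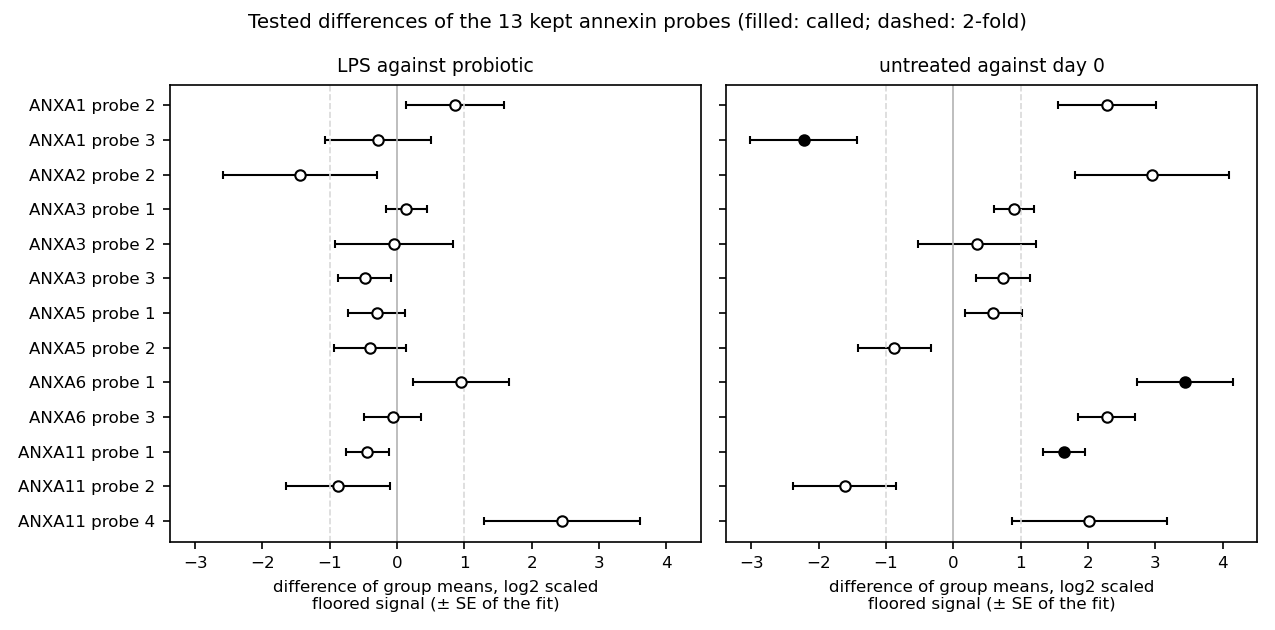
Difference of group means on the log2 scaled, floored signal (x axis, ± SE of the limma fit, 4 arrays a group) for the 13 kept annexin probes, LPS against probiotic at left and untreated against day 0 at right; filled points were called. No probe is filled at left, and ANXA1 probe 3, ANXA6 probe 1 and ANXA11 probe 1 are filled at right.

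Probes most like these lower ANXA11 and ANXA6 probes were sought over the 16 arrays among 10114 named kept probes of other genes, as a description by rank correlation of scaled signal. For ANXA11 probe 4 the nearest were SH2B3, KIAA1549, SLC22A14, KCNK13 and PTOV1, at Spearman's rho of 0.974 to 0.947. For ANXA6 probe 1 they were SULT2B1, ELOVL1, ACTL10, SLC36A4 and LOC782599, at 0.988 to 0.965. Of these last 5, 4 lay in rows 178 to 194, within 12 rows of ANXA6 probe 1 in row 182, and all 5 held 21.7 to 35% cytosine. The ANXA11 neighbours lay in rows 143 to 396 and held 23.3 to 40% cytosine.

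Partners of annexins were listed from general knowledge, namely the S100 proteins S100A4, S100A6, S100A10 and S100A11, the calcium-binding or sorting proteins PDCD6, SRI, PDCD6IP and TSG101, the receptors FPR1 and FPR2, and AHNAK, DYSF and PLA2G4A. Of these 13 genes 10 were on the array with 30 probes, 15 of them kept. Between probiotic and untreated, 7 of the 15 were at least 2-fold higher and 1 lower, against 13.7% and 16.6% of all kept probes, with a median of 0.79 against -1.80. These partner values are for the main scaling only. Scaled to the 75th percentile of all probes, 34.6% of all kept probes were higher and their median was 0.07. Only the kept S100A11 and DYSF probes, detected on all 4 untreated arrays, could be marked lower. None of the 15 was past 2-fold against day 0 with the brighter group detected on all its arrays. In LPS against probiotic limma called none of the 15, and none had an unadjusted p under 0.05. Between untreated and day 0 it called 1 up and 3 down, against 16.5% and 6.70% of all kept probes. Both kept probes of S100A4, a calcium-binding protein of motile cells, were higher in the probiotic than in the untreated pool, by 4.93 ± 0.29 and 4.96 ± 0.51, and were lower in untreated than in day 0 blood, by -4.65 ± 0.29 and -4.58 ± 0.51 (limma adjusted p = 1.4e-08 and 6.58e-06). Each was well above background on only 2 untreated arrays, so the sizes of these differences are lower bounds. Of the 2 kept probes of SRI, the sorcin that binds ANXA7, the probe in row 532 was at least 9.43-fold lower in untreated than in day 0 blood, with no untreated array well above background (-3.24 ± 0.31, limma adjusted p = 1.54e-06), and the probe in row 138 was not called (0.97 ± 0.58). DYSF, a membrane repair protein that interacts with annexins, went the other way, with untreated above day 0 by at least 2.49 ± 0.64 (limma adjusted p = 0.00238) and probiotic against untreated at -3.62 ± 0.64. No day 0 array had the kept DYSF probe well above background. Net signal of DYSF was 79, 134, 79.4 and 16 on the probiotic and 151, 92.8, 86.6 and 146 on the untreated arrays. The size of the -3.62 therefore rests on the scaling for DYSF. Its kept probe lay in row 279 and held 28.3% cytosine, while the S100A4 probes lay in rows 32 and 517 and held 33.3 and 26.7%.

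Of 5 further annexins, ANXA8, ANXA8L1, ANXA9, ANXA10 and ANXA13, 4 were on the array with 1 probe each, and only that of ANXA13 was kept. It read 182, 174, 191 and 131 on the probiotic arrays, 10.4 to 53.9 on day 0 and 121, 193, 124 and 44.7 with LPS. It was not called in LPS against probiotic or in untreated against day 0, where the untreated arrays were at the floor.

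The authors' deposited table gives 1 normalized log2 average per group and probe. In the authors' deposited table ANXA11 probe 4 was at -0.75 in the probiotic, 0.19 in the untreated and -0.76 in the day 0 group, a difference of -0.95 from untreated and of 0.00 from day 0. ANXA6 probe 1 differed there by 0.04 and 0.16, so neither probe was 2-fold lower in the probiotic pool in the authors' deposited table. Over the 12233 kept probes the differences in the authors' deposited table correlated with those of the net signal at Pearson's r of 0.345 where probiotic was set against untreated blood and -0.058 where it was set against day 0. With LPS against probiotic r was 0.879, and with untreated against day 0 it was 0.597, all across probes, which are not independent replicates. Between LPS and probiotic, 9 of the 13 kept annexin probes were at least 2-fold lower in the authors' deposited table with the brighter group detected on all its arrays (-1.98 to -1.02), and ANXA6 probe 1 was higher by 1.06. By the same rule 7220 of all 12233 kept probes were lower there, and the median over all was -1.19.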

How the data were processed

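The members and gene lists were chosen with earlier results of these data known. Per the labels, pooled whole-blood RNA was labelled with Cy3 and hybridised to Agilent 4x44K arrays, and Agilent Feature Extraction 10.10.1.1 (per the submitters' processing notes) read the scans. Per the file headers, the scanner files hold the net intensity (background-subtracted signal) used here, and a processed signal that the software detrended on 4 arrays (day 0 replicates 2, 3 and 4 and LPS replicate 4); no array normalization precedes either. The authors deposited 1 table of log2 averages per group, whose scaling and centring are not given in the sources used here.

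Net signal was divided by each array's 75th percentile over 712 probes well above background on all 16 arrays. It was then floored at the faintest of all probes well above background on that array and put on the log2 scale. Control spots and software outlier flags were left out. limma 3.58.1 (R 4.3.3; lmFit, eBayes) fitted 4 group means over 16 arrays, with Benjamini-Hochberg adjustment over 12233 probes, two-sided. Called probes had adjusted p under 0.05, at least a 2-fold difference and the higher group well above background on all 4 arrays. The code was tested on simulated data. Symbols are the deposited table's, and 24 of 25 annexin probes matched RefSeq by accession. Every probe of the 8 genes is described. Alternatives were other scalings, floors and signals, left-out arrays, a replicate block and the deposited averages. As the files hold no mean signal, the normexp alternative used the median signal. The number of arrays limits the precision. A sequence comparison of ANXA1 probes is not reported here.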

Additional observations from a re-analysis of the deposited data

Results flagged for a closer look

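Within the 4 arrays of a group, 43 sets of annexin probe values were checked for an array far from the other 3 (Dixon's test, where chance marks about 1 in 20), and 12 had one. LPS replicate 4 stood low for ANXA3 probe 3 (net signal 3.9), ANXA5 probe 1 (58.8), ANXA5 probe 2 (112) and ANXA11 probe 2 (71.3), and high for ANXA2 probe 2 (322). Day 0 replicate 4 stood low for ANXA5 probe 1 (10.7), ANXA5 probe 2 (27.3) and ANXA11 probe 2 (48.1). Probiotic replicate 4 stood low for ANXA1 probe 2 (9.4) and ANXA3 probe 2 (234). These arrays had the fewest probes well above background in their groups (22.5, 8.25 and 26.4% of all probes), and the part of this in the values was not tested. Among the other sets, untreated replicate 2 was low for ANXA11 probe 1 (115), and probiotic replicate 1 was high for ANXA11 probe 4 (666).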

How the results depend on the processing

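The direction of ANXA11 probe 4 (probiotic against untreated) held under all 28 alternatives computed from the scanner files (-7.16 to -3.80), as did that of ANXA6 probe 1 (-5.46 to -3.10). Many of the 28 could not change this difference. These are the fits without day 0 or LPS arrays, without the filter, with only the 2 groups and with the replicate block. The contrast also chose the genes, so the count of settings is no independent support. Counts of annexin probes moved, given here with the share of all kept probes by the same rule in parentheses. Past 2-fold up against untreated, 3 (13.7%) became 7 scaled to the 75th percentile (34.6%) or median (31.2%) of all probes, 7 with normexp and quantile normalization (37.2%), and 8 (54.8%) or 7 (31.1%) with the processed signal scaled to all or detected probes. Up against day 0, 1 (9.49%) became 0 with the percentile (5.71%), cyclic loess (6.20%), normexp (4.83%) or a common floor (3.49%), 8 with the median (40.1%), and 9 (76.5%) or 8 (54.9%) with the processed signal. Down against day 0, 2 (4.60%) became 1 with the median (3.04%) or the common floor (1.41%). The median of all probes lay near 0 on the untreated arrays. Called up between untreated and day 0, 2 (16.5%) became 0 with the percentile (5.75%) and 1 with the median (12.4%), loess (9.71%), normexp (13.3%) and the processed signal (7.5 and 6.72%). Called down, 1 (6.70%) became 2 with the percentile (15.4%), normexp (13.4%), no filter (1.95% of 43653 probes) or only the 2 groups compared (7.32%), and 0 with the median (5.68%), loess (4.39%), common floor (5.42%) or processed signal scaled to all probes (0.409%). Leaving out day 0 and LPS replicate 4 together, added after seeing the data as was the normexp setting, gave 0 up against day 0 (9.99%) and 3 down between untreated and day 0 (10.4%). The deposited averages gave 0 up (1.06%) and 0 down (4.21%) against untreated, 3 (54.6%) and 1 (4.28%) against day 0, 1 (5.48%) and 9 (59.0%) for LPS, and 1 up (16.5%) between untreated and day 0. Over all kept probes, higher calls were 45.17% of calls against untreated in the report, and 72.92, 69.92, 71.02, 80.98, 65.2 and 20.16% with the percentile, median, normexp, processed (all, detected) and deposited settings. Against day 0 they were 67.34%, and 52.05, 92.96, 51.04, 96.29, 91.55 and 92.72%, with 47.35% for cyclic loess. For LPS they were 93.56%, and 80.98, 66.67 and 78.46% with percentile, median and loess and 8.492% in the deposited averages. Between untreated and day 0 they were 71.06%, and 27.22, 49.86, 94.83 and 60.98% with percentile, normexp and the processed settings.

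Leaving out 1 array in turn, past 2-fold up against day 0 ran from 0 (without day 0 replicate 4) to 3 (without probiotic replicate 4), LPS calls up from 0 to 1 (without LPS replicate 1), and calls down between untreated and day 0 from 0 (without untreated replicate 1, 2 or 3) to 3 (without day 0 replicate 4), or 2 without LPS replicate 4.

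Reversed between probiotic and untreated were ANXA3 probes 1, 2 and 3 scaled to the 75th percentile of all probes (1.84, 1.33 and 1.79), to the median (1.57, 1.06 and 1.52), with normexp (2.08, 1.34 and 2.07), and with the processed signal scaled to all (4.15, 3.06 and 4.10) or detected probes (2.28, 1.19 and 2.23). ANXA6 probe 3 reversed to 2.26 with the processed signal scaled to all probes, and ANXA11 probe 1 to 0.59, 0.32 and 0.59 scaled to the 75th percentile of all probes, to the median, and with the processed signal scaled to all probes. In the deposited averages ANXA1 probe 3 (-1.11), ANXA6 probe 1 (0.04) and ANXA11 probe 1 (0.12) reversed. Against day 0, ANXA3 probe 2 reached 2.91 with the processed signal scaled to all probes, and the deposited averages gave ANXA1 probe 3 -1.38, ANXA6 probe 1 0.16, ANXA11 probe 2 -0.93 and ANXA11 probe 4 0.00. ANXA3 probe 1 was -1.39 there for LPS against probiotic. Between untreated and day 0, ANXA6 probe 1 was -1.08 with the processed signal scaled to detected probes and ANXA11 probe 1 -0.43 scaled to the 75th percentile of all probes. The cause was not tested.

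The labels number the arrays 1 to 4 in each group. Deviations of same-numbered arrays correlated at -0.202 to 0.675 (24 pairs, median -0.00681), those of differently numbered arrays at -0.596 to 0.488 (72 pairs, median 0.00256). Most same-numbered arrays thus did not deviate together, but the highest correlation was between same-numbered ones. Replicate 4 detected the fewest probes in the day 0, probiotic and LPS groups. Whether the arrays are paired is not settled by these values, and the main fit does not pair them. A fit with the replicate number as a block gave 3 up and 3 down against untreated, 1 and 2 against day 0, 0 and 0 for LPS and 2 and 1 between untreated and day 0. Signal over background is the limit for the untreated arrays, where 3 of 25 annexin probes were measured on all 4.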
